A study of Homo sapiens with 8 samples.

Results

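The regions described here are 1290 autosomal tiles of 1 kb in the DNA of HUES64 human embryonic stem cells. They are densely packed with CpGs and were almost fully methylated at the start of the time course. The tiles were chosen by their own methylation levels on days 0 and 1, so those levels are given as a description. A tile entered when 40 or more of its CpGs were listed in any library, when at least 10 of these had 10 or more reads on days 0, 1, 2, 6 and 7, and when 80% or more of the reads of those used CpGs were methylated on days 0 and 1 pooled. Of 426058 autosomal tiles with a listed CpG, 10661 had 40 or more, and 10655 of these had enough used CpGs. Of these, 1290 tiles (12.1%) were fully methylated, 599 (5.62%) were intermediate and 8766 (82.3%) had 20% or less of their reads methylated. The 1290 tiles held 65297 listed and 55747 used CpGs.

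HUES64 is an established line of human embryonic stem cells. All 8 libraries carry the genotype DNMT1 knockout and differ by the day of DNMT1* withdrawal, days 0, 1, 2, 3, 4, 5, 6 and 7, with 1 library per day. DNMT1* is taken here as the DNMT1 copy whose withdrawal starts the course. Methylation was read by reduced representation bisulfite sequencing (RRBS), which samples DNA beside MspI cut sites and therefore favours CpG-rich DNA. There are no replicates, and the labels do not say whether the libraries came from 1 culture or from several, so p-values measure the spread of single libraries around a trend and not the spread between courses.

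In mammals DNMT1 restores CpG methylation on the newly made strand after each round of DNA replication, and without it methylation is diluted as cells divide. Most CpG-dense DNA in human cells lies in CpG islands at gene starts and stays unmethylated. The dense tiles that are methylated are the exception, and such DNA is commonly found in repeats, near chromosome ends, within gene bodies and at promoters of genes that are used in germ cells.

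Promoters could be tied to a minority of the tiles. The RefSeq promoter table (GRCh38.p14, 250 bases before to 50 after each gene start) was matched to the hg19 tiles by the layout of CpGs, asking that every CpG listed in the 300-base window fell on a CG of the sequence and that 10 or more did so. Of 1234 fully methylated dense tiles on the chromosomes the promoter table covers, 57 (4.62%) held a matched promoter, against 102 of 580 intermediate tiles (17.6%) and 4261 of 8396 unmethylated dense tiles (50.8%). For 55 tiles the match was to a single place, and 29 of these carried a protein-coding gene. Among them were the starts of PIWIL1, which encodes an Argonaute protein that binds piRNAs in the germ line, of MOV10L1 and TDRD9, helicases of the same pathway, and of TDRD6, a tudor protein of mouse spermatids. The same set held RBMXL2, a retrogene copy of RBMX expressed in testis, ZFP42 (REX1), a zinc finger gene widely used as a marker of pluripotent cells, and SPEG, a kinase gene of striated muscle. These genes are named for their known roles, chosen after their values were seen.

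4 of these promoters are shown, each 5′ to 3′ on its gene's plus strand, because they carry the gene names among the results below. SPEG is at one end of the range of loss, TDRD9 and PIWIL1 stand for the piRNA genes, and ZFP42 for the genes of pluripotent cells. Capitals mark the CGs whose reads were used, and CGs in lower case had too few reads or were not listed. The windows are at chr2:220299315-220299614 (SPEG), chr14:104394543-104394842 (TDRD9), chr12:130822182-130822481 (PIWIL1) and chr4:188916675-188916974 (ZFP42) in hg19, as placed by the CpG layout, and the sequences are RefSeq's of GRCh38.p14.

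SPEG: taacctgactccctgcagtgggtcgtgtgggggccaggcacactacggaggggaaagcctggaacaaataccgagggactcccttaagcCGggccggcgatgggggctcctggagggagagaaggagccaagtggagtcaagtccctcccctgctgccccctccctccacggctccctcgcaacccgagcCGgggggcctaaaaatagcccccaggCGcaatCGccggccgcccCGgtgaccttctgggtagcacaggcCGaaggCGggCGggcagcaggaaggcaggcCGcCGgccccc

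TDRD9: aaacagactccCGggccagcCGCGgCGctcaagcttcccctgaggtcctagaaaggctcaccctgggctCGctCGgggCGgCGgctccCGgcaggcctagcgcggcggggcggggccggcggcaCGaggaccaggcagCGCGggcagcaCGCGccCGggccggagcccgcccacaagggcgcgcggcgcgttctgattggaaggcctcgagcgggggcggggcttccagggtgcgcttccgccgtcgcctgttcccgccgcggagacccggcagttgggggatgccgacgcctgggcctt

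PIWIL1: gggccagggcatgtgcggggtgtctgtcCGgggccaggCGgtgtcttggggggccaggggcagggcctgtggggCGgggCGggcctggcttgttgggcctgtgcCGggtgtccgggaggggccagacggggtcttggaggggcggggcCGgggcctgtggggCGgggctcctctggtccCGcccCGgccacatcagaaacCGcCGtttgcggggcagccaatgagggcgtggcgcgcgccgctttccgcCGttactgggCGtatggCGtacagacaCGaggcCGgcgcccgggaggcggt

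ZFP42: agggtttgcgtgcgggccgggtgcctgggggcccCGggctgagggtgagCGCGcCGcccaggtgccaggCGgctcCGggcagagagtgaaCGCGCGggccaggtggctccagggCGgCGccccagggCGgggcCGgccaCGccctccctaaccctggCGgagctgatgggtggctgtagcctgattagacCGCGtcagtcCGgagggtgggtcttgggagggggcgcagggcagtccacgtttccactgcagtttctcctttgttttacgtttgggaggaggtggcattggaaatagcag

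SPEG held 10 used CGs of 20 in its window, TDRD9 15 of 41, PIWIL1 16 of 30 and ZFP42 18 of 24. In TDRD9 and ZFP42 the used CGs all lie before the gene start. RRBS reads thus sample part of each promoter, in clusters.

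Depth differed between days. Between 77691782 and 161534152 CpG read calls were made on days 0, 1, 2, 6 and 7 (median per CpG 21 to 44), but only 12359218 to 15156251 on days 3, 4 and 5 (median 4). The reads of a tile are CpG read calls summed over its used CpGs, so 1 read counts once at each CpG it covers. In these calls a fully methylated dense tile had a median of 2196.5 on day 0. On days 3, 4 and 5 the median was 173, 147 and 167.5, and 83, 150 and 102 tiles had under 100 calls. Tile values of these 3 days are accordingly less exact. No molecular identifiers are given, so several reads can stem from 1 molecule. Every interval below covers counting error only, and the intervals and counting corrections treat all calls as independent. Linked calls of 1 read are not allowed for, so the counting error of a tile can be larger than given.

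The tiles lost methylation together. The mean level of the 1290 tiles, as the percentage of a tile's reads that were methylated, was 86.7%, 83.5%, 75.8%, 55.8%, 38.98%, 30.3%, 21.0% and 16.8% on days 0 to 7. On day 7 the tiles kept 19.3% of their day 0 level. The loss was slow at first, with 96.3% of the previous day's level kept on day 1 and 90.8% on day 2, and between 69.4% and 79.7% kept on each later day. Over days 2 to 7, which took no part in the choice of level, the natural log of the mean fell by 0.307 ± 0.0087 per day (SE, 6 libraries), or 26.4% of the level per day, a halving in 2.26 days. The exact two-sided permutation test over days gave p = 0.0028, the smallest that 6 libraries allow, and 0.0083 after Benjamini-Hochberg adjustment over 6 trends.

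**Figure D1:**
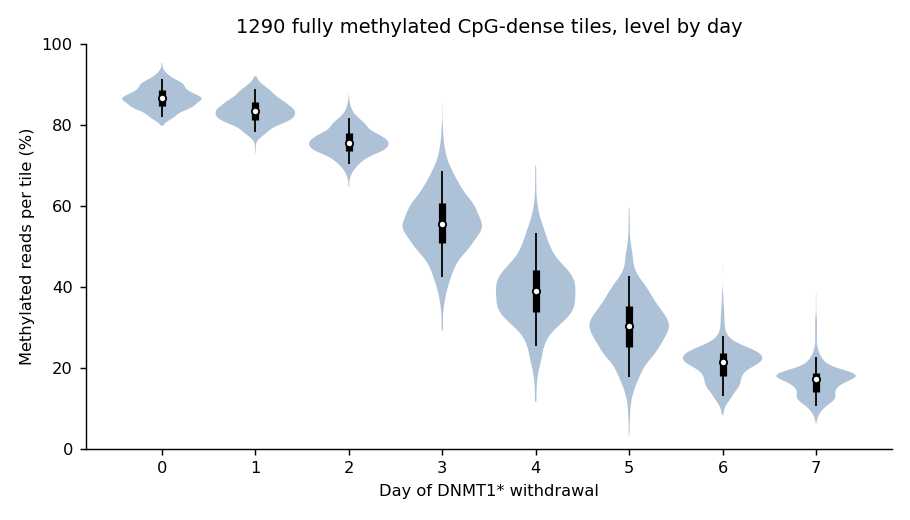
Level of each of the 1290 tiles (methylated reads, %) against the day of withdrawal; shapes show the distribution over tiles, white points the median, thick bars the interquartile range and thin bars the 5th to 95th percentile. The whole distribution moves down, and its lowest and highest tiles on day 7 are at 6.20% and 38.6%.

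Every one of the 1290 tiles fell over days 2 to 7 in a quasi-binomial regression of its reads on day at an adjusted p of 0.05 (limma-moderated, Benjamini-Hochberg). In the same fit 64.5% of all 60716 tiles tested fell and 0% rose; all classes of starting level are in that figure, and among 19657 fully methylated tiles with fewer than 40 listed CpGs the share that fell was 99.9%. The count of 1290 is therefore near that of other methylated tiles. The median slope of the dense tiles was -0.55 log odds per day. Without day 2 the count was 1253 of 1290, without day 6 it was 1288, and leaving out day 7, or the unmoderated fit, gave 1289.

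The class differed slightly from sparser methylated DNA in the course of its loss. On days 0, 2, 3, 6 and 7 fully methylated dense tiles stood at 86.7%, 75.8%, 55.8%, 21.0% and 16.8%, against 86.8%, 74.6%, 54.2%, 21.9% and 17.8% in 6033 fully methylated tiles with 20 to 39 listed CpGs. The ratio of the means was 1.03 on day 3 and 0.939 on day 7, so the dense tiles were the higher ones early and the lower ones late. The log slope of that ratio was -0.0184 ± 0.0037 per day (SE, exact permutation p = 0.011, adjusted 0.013). Against 13624 fully methylated tiles with 10 to 19 listed CpGs the ratio was 1.05 on day 3 and 0.904 on day 7, with a slope of -0.031 ± 0.0054 (exact permutation p = 0.0083, adjusted 0.013). Days 0 and 1, whose levels chose the tiles, are part of 2 alternatives, in which both slopes were smaller: -0.00998 (exact permutation p = 0.075) and -0.0171 (p = 0.067) in the 5 deep libraries, and -0.00931 (p = 0.047) and -0.0163 (p = 0.033) in all 8. Without day 7 the exact permutation p was 0.067 and 0.05, and without the largest group of shared CpG layout described below the slope against tiles with 20 to 39 was -0.0307 (p = 0.0056). The mean gap between dense tiles and the 2 sparser classes never exceeded 2.81 points.

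Within the dense tiles the same direction was seen. The 207 tiles with 60 or more listed CpGs stood at 76.8%, 19.5% and 15.4% on days 2, 6 and 7, against 75.6%, 21.3% and 17.0% in the 1083 tiles with 40 to 59. The slope of the log ratio was -0.0263 ± 0.0044 per day (SE, exact permutation p = 0.011, adjusted 0.013). Composition differed between these groups, because 9.18% of the tiles with 60 or more and 39.8% of those with 40 to 59 shared 1 CpG layout described below. Without those tiles the slope was -0.0173 (exact permutation p = 0.022), over 1.5 times smaller. Among tiles that reached 90% it was -0.0176 (exact permutation p = 0.169), and leaving out day 7 gave -0.0256 (p = 0.067). With days 0 and 1 included, all 8 libraries gave -0.0172 (exact permutation p = 0.0048) and the 5 deep ones -0.0183 (p = 0.067).

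The intermediate dense tiles lost a larger part of their methylation. Fully methylated dense tiles averaged 75.8% on day 2 and 16.8% on day 7, against 45.2% and 8.38% in the 599 intermediate ones, and the ratio of the means was 1.679 on day 2 and 1.9999 on day 7. The log slope of the ratio was 0.0355 ± 0.0037 per day (SE, exact permutation p = 0.0028, adjusted 0.0083), positive where the fully methylated tiles fell less steeply. With only the 83 fully methylated tiles at 90% or more set against the same intermediate tiles it was 0.075 (exact permutation p = 0.0028). By day 7 the fully methylated tiles kept 19.3% of their day 0 mean, against 15.7% in the intermediate tiles.

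**Figure D2:**
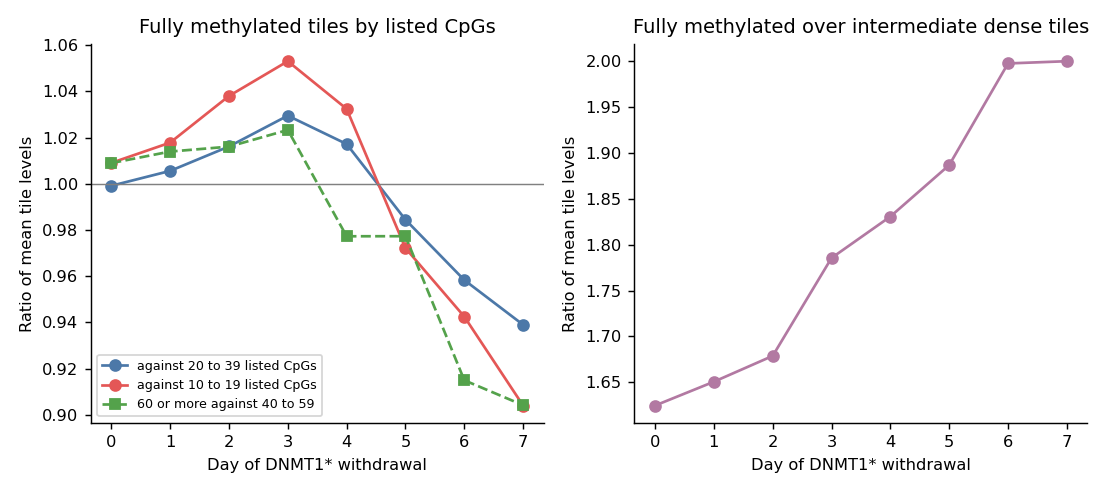
Ratio of mean tile levels by day of withdrawal, of fully methylated tiles by listed CpGs (left, the denser class over the sparser one; grey line, equal levels) and of fully methylated over intermediate dense tiles (right). The left curves lie above 1 on day 3 and below 1 on days 6 and 7; the right curve goes up over the course.

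The spread between tiles, relative to their level, grew as the level fell. After removing the variance that read counting alone gives, the SD over tiles was 2.71, 3.29, 4.57 and 3.91 points on days 0, 2, 6 and 7. In the shallow libraries of days 3, 4 and 5 this SD was larger, at 6.91, 7.39 and 6.87 points. Relative to the mean it was 3.12% on day 0 and 23.4% on day 7. Sparser fully methylated tiles showed similar growth, from 3.47% to 26.2% with 20 to 39 listed CpGs and from 3.63% to 23.7% with 10 to 19. In the dense tiles the 95th percentile was 1.11 times the 5th on day 0 and 2.12 times on day 7. The day 0 spread is held down by the 80% rule. On day 7 the share of the starting level (days 0 and 1 pooled) that a tile kept ran from 12.6% at the 5th percentile to 25.9% at the 95th, around a median of 20.1%.

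Tiles held their order between neighbouring late days more than between the start and the end. Across the 1290 tiles Spearman's rho was 0.763 between days 0 and 1, 0.715 between days 0 and 2, 0.345 between days 2 and 6, 0.188 between days 0 and 7 and 0.824 between days 6 and 7. Shallow days gave lower values, such as 0.497 between days 5 and 6. These describe tiles measured in single libraries, with depth shared along the genome, and tiles are not replicates. A total of 161 tiles were above the median of fully methylated tiles on all 6 days from day 2 to day 7, and 109 were below it on all 6. Such counts are not given for the sparser fully methylated tiles, so whether these are unusual was not tested. The mean of the dense tiles was above those of both sparser classes on day 2 and below them on day 7, which bears on both counts.

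A further feature of the tiles was their CpG layout. In 450 tiles (34.9%) on 22 chromosomes the CpGs could be chained into 1 group, each tile having 20 or more CpG positions in the same places as another tile after 1 shift. In 275 of the 450 the commonest distance between CpGs of a tile, leaving out the shortest distances, was 40 bp. In none did 50% or more of the CpGs recur at 1 such distance. The 450 tiles were alike in level: the mean was 85.6% on day 0 and 18.2% on day 7, and on day 6 it was 23.04% with an SD of 1.89 points over tiles. The 581 tiles with no shared layout had means of 87.5% on day 0 and 15.9% on day 7, and on day 6 of 19.8% with an SD of 5.39 points. Of the tiles in the large group, 4.44% lay within 3 Mb of the first or last listed CpG of their chromosome. Chromosome ends are meant in this sense below. Where the listed CpGs begin far from a chromosome's start, a tile far from that start also counts. The tandem tile chr22:17628001-17629000 is an example.

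Another 130 tiles had a tandem layout, in which 50% or more of the CpGs recur at 1 fixed shift inside the tile. The median shift was 52 bp. Of these tiles, 104 lay within 3 Mb of the first or last listed CpG of their chromosome. The 130 tiles averaged 21.2% on day 6 with an SD of 5.91 points. A further 129 tiles fell into smaller groups of shared layout and averaged 19.1% on day 6. The layouts were defined after the data had been seen, and their differences in level carry no test. The treatment of reads from near-identical copies is not stated by any source used and the values of single tiles of a shared layout are uncertain.

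**Figure D3:**
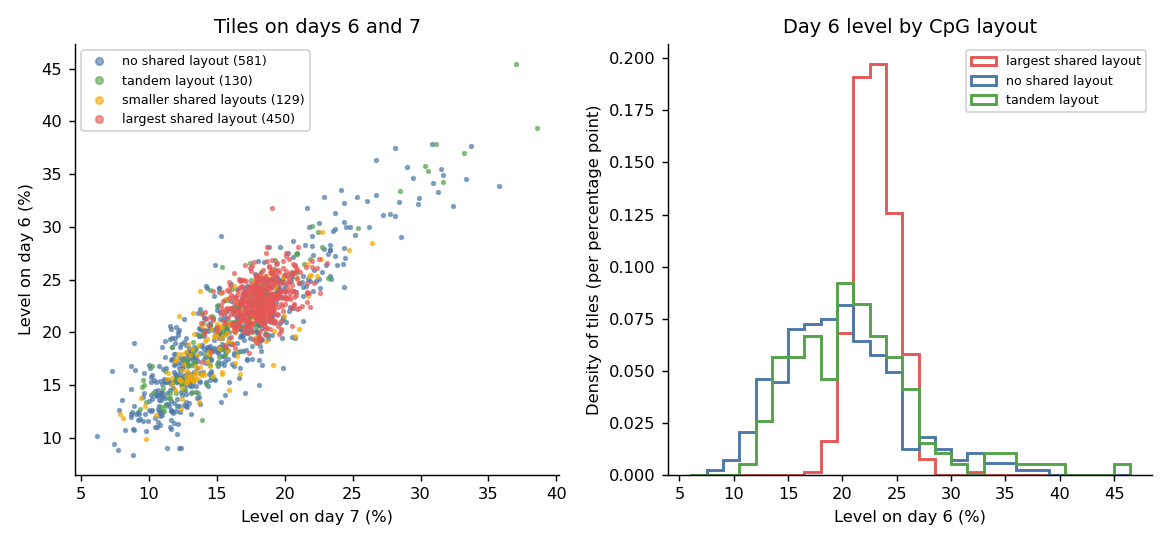
Left, level of each tile on day 6 against day 7 (methylated reads, %), coloured by CpG layout; right, distribution of the day 6 level over tiles of 3 layouts as a density. Tiles of the largest shared layout (SD 1.89 points) cluster within the range of the tiles with no shared layout (SD 5.39 points).

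Tiles near the first or last listed CpG of a chromosome, called ends here, started higher and ended lower than the others. The 407 tiles within 3 Mb of such an end averaged 87.5% on day 0 and 19.9% on day 6, against 86.3% and 21.5% in the 883 elsewhere. Among tiles with no shared layout the day 6 values were 19.7% near ends and 19.9% elsewhere, and among tandem tiles they were 20.9% in 104 near ends and 22.8% in 26 elsewhere. The layouts were unevenly placed, as 4.91% of the tiles near ends but 48.7% of those elsewhere were of the largest shared layout. Chromosome 19 had 135 tiles, 20.6% of its dense tiles, against 7.24% to 15.9% on the other autosomes.

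Neighbouring tiles were more alike than pairs of tiles in general. Most tiles stood alone, with 1079 single tiles, 83 runs of 2, 11 of 3 and 3 of 4. Over the 114 pairs of adjoining tiles Pearson's r of the day 6 level was 0.801, and the median gap was 1.86 points against 4.13 points over all pairs of tiles. In the run at chr4:738001-742000, whose tiles hold 61 to 99 listed CpGs, the 4 levels were 24.3%, 26.8%, 25.6% and 25.03% on day 6 and 19.1%, 19.3%, 20.4% and 19.9% on day 7. In the run at chr13:114849001-114853000, where all 4 tiles have a tandem layout, they were 15.5%, 15.7%, 15.03% and 16.9% on day 6 and 12.4%, 14.6%, 12.4% and 14.5% on day 7. The 2 runs do not overlap on either day. A tandem layout is not particular to the lower of them. In the higher run every tile except chr4:738001-739000 has it too, and both runs lie near a chromosome end. The third run, chr4:187881001-187885000, had 11 to 16 used CpGs per tile and 267 to 388 CpG read calls on day 6. Its levels were 26.2%, 21.5%, 23.5% and 27.8% on that day. On day 7 they were 15.4%, 17.7%, 21.7% and 24.8%, so the tiles of this run were less alike.

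Few tiles stood apart from the usual course. Each tile was compared over days 2 to 7 with the median of all 20947 fully methylated tiles (limma-moderated quasi-binomial fit, Benjamini-Hochberg at 0.05). Of the dense tiles 58 were higher, where 4.40% of all fully methylated tiles were called higher, and 49 were lower, where 3.14% were called lower. The dense tiles' own shares, 4.496% and 3.798%, are near those backgrounds, so outlying tiles were about as frequent here as elsewhere. The level on days 0 and 1 differed between these sets, with a median of 90.1% in the higher tiles, 83.1% in the lower tiles and 85.4% in the rest. When each tile was set against its own starting level times the usual share kept, 10 were higher and 12 lower. Without moderation of the dispersion 0 were called in either direction, so every call of a single tile given below rests on the moderated fit. The 5 deep libraries, which include days 0 and 1, gave 124 and 94. Without day 6 the counts were 23 and 17, without day 2 they were 28 and 30, and without day 7 they were 29 and 19.

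The tile farthest above the others was chr19:1034001-1035000, a tandem layout near the chromosome end with 76 listed CpGs. Its level was 92.3%, 90.2%, 84.6%, 70.9%, 63.6%, 47.4%, 45.5% and 37.0% on days 0 to 7, with a 95% Wilson interval of 43.2% to 47.8% on day 6. It was above the mean of the class on every day, and its odds of methylation over days 2 to 7 were 2.51 times the usual ones (log odds 0.92 ± 0.11 SE, adjusted p = 0.00022 by the limma-moderated fit). The next 5 tiles by fitted deviation had odds 1.88 to 2.01 times the usual. Of these, chr19:17837001-17838000 stood at 34.6% on day 6 and 33.3% on day 7, and chr1:27876001-27877000 at 37.9% and 30.8%. The other 3 were chr13:111907001-111908000 (37.0% on day 6), chr7:6194001-6195000 (35.7%) and chr22:17628001-17629000 (35.3%). Of these 6 tiles, 3 have a tandem layout, and none is of a shared layout.

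The tile farthest below was chr1:1072001-1073000, with 83.3%, 76.6%, 67.1%, 36.5%, 19.5%, 14.3%, 12.1% and 10.9% on days 0 to 7. Its odds were 0.53 times the usual ones (log odds -0.64 ± 0.11 SE, adjusted p = 0.0038 by the limma-moderated fit), and on day 6 its interval was 10.8% to 13.5%. Next were chr19:58907001-58908000, chr19:719001-720000, chr17:32953001-32954000, the SPEG tile chr2:220299001-220300000 and chr22:40390001-40391000, with odds 0.53 to 0.56 times the usual. None of the 6 has a shared or tandem layout. The tile on chromosome 17 was at 8.36% on day 6, the lowest of all 1290, and at 8.84% on day 7. The 6 low tiles stood between 65.6% and 71.9% on day 2, against a class mean of 75.8%, and between 29.2% and 40.4% on day 3, against 55.8%.

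On day 6 alone, 10 tiles lay more than 3 MAD above the median tile and 29 more than 3 MAD below it. All 10 high tiles were above the median of the 1290 on days 2, 5 and 7 as well, and 9 of them on day 4. Of the 29 low tiles, 2, 1, 1 and 0 were above it on days 2, 4, 5 and 7. Neither set held a tile of the largest shared layout. Of the tiles called over days 2 to 7, 31 of 58 higher and 26 of 49 lower ones lay within 3 Mb of the first or last listed CpG. Of those not called, 29.6% did. The largest shared layout, of which 4.44% lay near ends, made up 447 of the 1183 tiles not called, against 3 of the higher and 0 of the lower ones.

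The densest tiles did not share a level. The 3 tiles with most listed CpGs, all on chromosome 19, hold 117, 109 and 107. The tile chr19:1229001-1230000 (117) stood at 91.1%, 20.4% and 14.6% on days 0, 6 and 7. The tile chr19:50155001-50156000 (109) stood at 92.1%, 28.4% and 26.4%, and chr19:48946001-48947000 (107) at 86.2%, 16.1% and 13.4%. None of the 3 passed the test of deviation, with adjusted p of 0.84, 0.099 and 0.2 (limma-moderated fit).

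The late levels of tiles just inside and just outside the limit overlapped in part. Just inside 80%, chr7:91656001-91657000, chr12:34494001-34495000 and chr19:407001-408000 stood at 24.3%, 11.4% and 10.8% on day 6. Just outside it, chr4:80166001-80167000, chr4:190991001-190992000 and chr6:33800001-33801000 stood at 22.9%, 15.7% and 23.8%. The inside tiles on chromosomes 12 and 19 were thus below all 3 outside tiles. Both were called lower in the test of deviation described above (adjusted p of 0.022 and 0.0092, limma-moderated fit). That test uses the median of all fully methylated tiles and does not allow for a tile's start. These tiles were picked for starting at 80.05% and 80.08% on days 0 and 1 pooled, so the calls are partly built in. Against each tile's own start 12 of the 1290 were called lower, in place of 49, and whether these tiles were among them is not given.

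Promoter tiles lay within the range of the class. Over the 55 tiles with a single promoter match the day 6 level had a median of 17.7%, from 9.04% to 26.8%, and the day 7 level a median of 14.4%. None was of the largest shared layout. By the test of deviation 0 of the 55 were higher (4.40% background) and 4 were lower (3.14% background), and SPEG was the 1 protein-coding gene among the lower ones. The 4 are a larger share than the background, on few tiles, and the difference was not tested. The class as a whole had a day 6 median of 21.5%. It includes the largest shared layout, with a day 6 mean of 23.04%, while tiles with no shared layout had a mean of 19.8%.

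The tile of SPEG held 84.0%, 80.5%, 70.3%, 35.6%, 22.1%, 14.4%, 11.8% and 9.38% on days 0 to 7. The tile of PIWIL1 held 87.6%, 83.4%, 75.3%, 56.0%, 31.9%, 27.6%, 18.3% and 14.5%. The tile of TDRD9 held 90.04%, 88.6%, 80.3%, 59.8%, 50.3%, 21.9%, 19.5% and 15.2%. SPEG was the lowest of these on every day, while PIWIL1 and TDRD9 ended within 1 point of each other. The tile of ZFP42 held 89.7%, 88.4%, 79.5%, 57.3%, 59.2%, 35.4%, 23.1% and 15.6%, where the values of days 3, 4 and 5 come from the shallow libraries. In the remaining germ-line genes named above, MOV10L1 stood at 15.4% on day 6, RBMXL2 at 18.5% and TDRD6 at 19.3%.

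Inside the printed windows the CGs in capitals fell without exception. In the SPEG window the 10 CGs ranged from 72.5% to 89.6% on day 0 and from 2.04% to 18.2% on day 7. In the TDRD9 window the 15 CGs ranged from 75% to 97.9% on day 0 and from 4.92% to 28.9% on day 7. In the PIWIL1 window the 16 CGs ranged from 69.6% to 95.8% on day 0 and from 2.44% to 17.6% on day 7. These 3 windows had no overlap between the ranges of the 2 days. The same holds for the tile levels of the whole class, which were 79.8% or more on day 0 and 38.6% or less on day 7. Those are levels of whole tiles, and ranges of single CpGs in the other tiles are not given. Whether the absence of overlap is particular to these promoters was thus not tested, and the rule set the day 0 level. In the ZFP42 window the 18 CGs ranged from 82.1% to 100% on day 0 and from 6.67% to 32.4% on day 7, again without overlap.

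**Figure D4:**
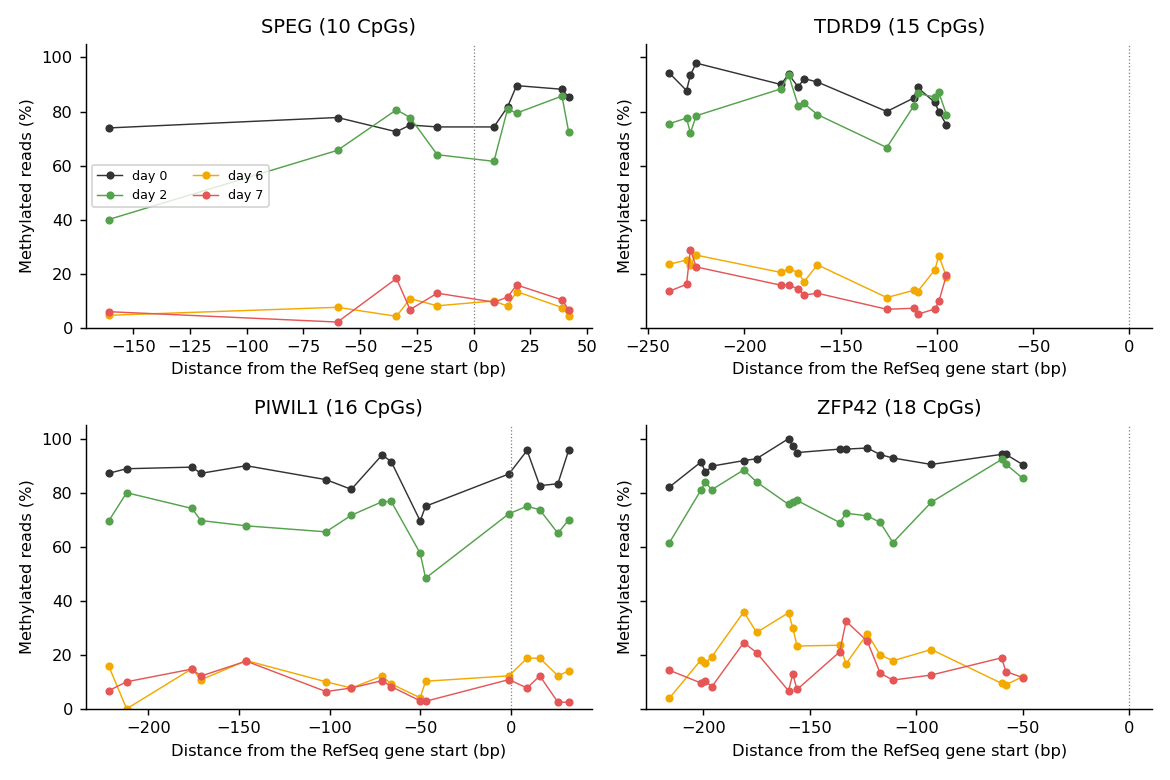
Methylated reads (%) at each used CpG of 4 promoters against its distance from the RefSeq gene start (bp, negative before the start), on days 0, 2, 6 and 7. Day 0 values (black) lie at 69.6% or more and day 7 values (red) at 32.4% or less at every CpG shown.

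CpGs of a tile kept part of their order. Within a tile, Spearman's rho of CpG levels between days 6 and 7 had a median of 0.311 and was above 0 in 1155 of 1290 tiles. Between days 2 and 6 the median was 0.243, between days 0 and 2 it was 0.389, and between days 0 and 6 it was 0.209. With 20 or more reads per CpG the median between days 6 and 7 was 0.331 in 1255 tiles, and with 50 or more it was 0.432 in 167 tiles. CpGs of a tile share fragments and libraries, so no p is given.

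CpGs with the lowest levels on day 2 were also lower later. In each tile the lowest 25% and the highest 25% of CpGs by their day 2 level were followed, and on day 2 itself, which defines them, they averaged 62.6% and 85.5%. The lowest CpGs stood at 18.1% on day 6, against 23.3% for the highest, and were lower in 1115 of 1290 tiles. On day 7 the values were 14.4% and 18.6%, with the lowest CpGs lower in 1095 tiles. These sets already differed on day 0, at 79.6% and 89.96%. The ratio of the lowest to the highest set was 0.885 on day 0 and 0.776 on day 7.

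Likeness between CpGs reached over short distances. A CpG's deviation from its tile mean on day 6 correlated with its own deviation on day 7 at 0.374, and with that of another CpG at 0.139 over 2 to 4 bp, 0.0881 over 5 to 9 bp and 0.0576 over 10 to 19 bp. From 20 bp on the values lay between -0.019 and -0.0047.

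**Figure D5:**
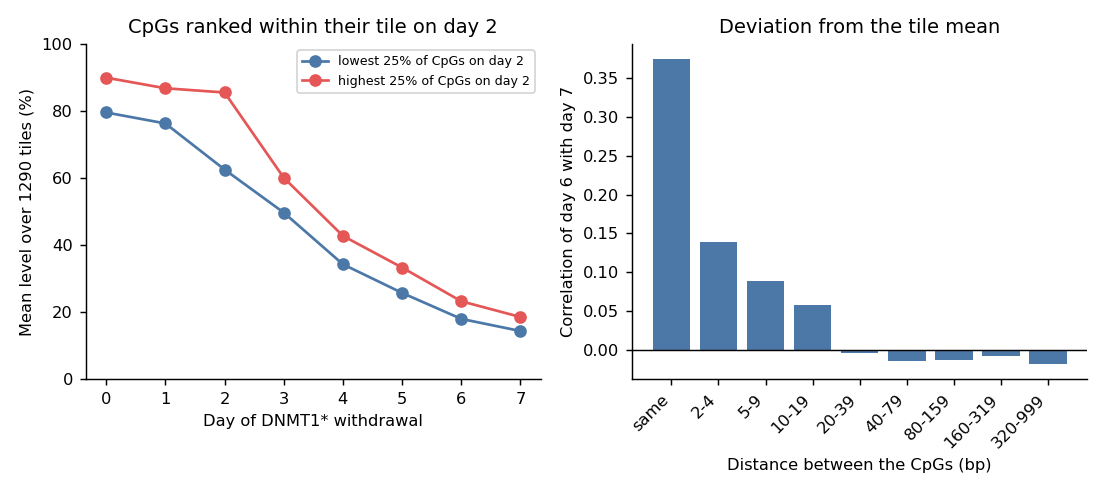
Left, mean level (%) by day of the 25% of CpGs that were lowest (blue) and highest (red) within their tile on day 2; right, correlation of a CpG's deviation from its tile mean on day 6 with that of the same or another CpG on day 7, by distance (bp). The sets stay apart to day 7 (14.4% and 18.6%), and the correlation is 0.374 for the same CpG and near 0 from 20 bp on.

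Closely spaced and widely spaced CpGs were not told apart in the pace of loss. CpGs with a listed neighbour at 5 bp or less (29053) and those with the nearest at 15 bp or more (6062) differed in log slope by -0.00039 ± 0.0035 per day (SE, exact permutation p = 0.90). Among tiles that reached 90% the difference was -0.0229 (exact permutation p = 0.025). In the 5 deep libraries, which include the days that chose the tiles, it had the other sign, at 0.00477 (exact permutation p = 0.042).

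The share of the variation that lay between tiles grew over the course. After counting error, differences between tiles made up 10.3%, 14.3%, 39.8% and 39.3% of the variance of CpG levels on days 0, 2, 6 and 7. The rest lay between CpGs of the same tile, with an SD of 8.16 points on day 0 and 4.80 points on day 7. The rule that chose tiles by their starting level held down the differences between tiles on day 0. It set no limit on single CpGs. The low share on day 0 is therefore partly fixed by that choice, and how much of the growth stems from it was not tested. The 3 tiles with the most uneven CpGs on day 6 were chr1:1189001-1190000, chr19:2433001-2434000 and chr17:80041001-80042000, with SDs over their CpGs of 19.7, 19.03 and 18.8 points at tile levels of 31.3%, 39.3% and 33.9%. All 3 lie within 3 Mb of the first or last listed CpG of their chromosome.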

How the data were processed

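RRBS libraries of 8 days were used, 1 per day. The authors deposited for each CpG its methylated and total read counts in 1 column ("meth/total") and a score, which equals 1000 times the methylated share in 100% of lines; the counts were used. The build is hg19 per the submitters' processing notes; no source used here names the aligner, the caller or the treatment of duplicates. Tiles and CpG minimums are as stated in the report, and tile levels are methylated over all reads of the used CpGs. Days 0 and 1 chose the tiles, so the main tests used days 2 to 7, while the alternatives with the 5 deep or all 8 libraries include days 0 and 1: log slopes with exact permutation, and quasi-binomial fits per tile whose dispersion was moderated by squeezeVar (limma 3.58.1, R 4.3.3) and kept at 1 or more, with Benjamini-Hochberg adjustment.

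Reads were down-weighted for extra variance between days (share 0.0103 for the trend and 0.0106 for the deviation), a step added because the planned fit made too many false calls on simulated reads. All fits were tested on simulated data. Gene names come from matching RefSeq promoters by CpG layout, and layouts were compared, both steps added after the data were seen; no coordinates were converted. Tiles named as outlying were those past the threshold and on the same side of the median on all 6 days, the 6 highest and 6 lowest, with the 3 tiles with most CpGs, the 3 most uneven, the runs of 4 and the 3 on each side of the limit. The tiles and comparisons were chosen with earlier results of these data known. Python 3.11.15, numpy 2.4.6, pandas 2.3.3 and scipy 1.17.1 were used. Alternatives were other read minimums, class limits, tile borders, weightings and sets of libraries.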

Additional observations from a re-analysis of the deposited data

Results flagged for a closer look

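The 44 tiles of the X chromosome that meet the same rule lie outside the comparisons above, which are autosomal, and are listed for that reason. They averaged 87.3% on day 0, where the rule set the level, and 17.6% on day 7. On day 7, 16.7% of their 117525 CpG read calls were methylated. No difference from the autosomal tiles was tested.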

How the results depend on the processing

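No paired analysis was possible because each day has 1 library and the labels give no replicate numbers. The decline of the class and its difference from intermediate dense tiles kept their direction and side of the threshold under every alternative run, with slopes from -0.320 to -0.256 and from 0.0276 to 0.075 per day, the last with a limit of 90%. Of 1290 tiles, 1253 were called falling without day 2, 1288 without day 6, and 1289 without day 7 and without moderation. With a limit of 90%, the difference between 60 or more and 40 to 59 listed CpGs was -0.0176 (exact permutation p = 0.169) and that between close and spaced CpGs was -0.0229 (p = 0.025). In the 5 deep libraries, which include days 0 and 1, the differences from tiles with 20 to 39 and with 10 to 19 listed CpGs were -0.00998 and -0.0171, that between 60 or more and 40 to 59 was -0.0183, and that between close and spaced CpGs was 0.00477. With a day left out, they ranged from -0.0244 to -0.0162, from -0.0396 to -0.0273 and from -0.0313 to -0.0242 for the first 3, and without day 7 they were -0.0162, -0.0273 and -0.0256 and missed the threshold. The cause was not tested; fewer libraries also raise the smallest p that permutation can give.

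The counts of tiles called higher and lower moved most, from 58 and 49. They were 0 and 0 without moderation, where fewer degrees of freedom remain, and 162 and 183 without depth weights, a fit that made too many false calls on simulated reads. At an unadjusted p of 0.05 the limma-moderated fit gave 156 and 153. The 5 deep libraries gave 124 and 94, each tile's own starting level 10 and 12, and a limit of 90% 1 and 0. With a day left out the counts ran from 23 to 51 and from 17 to 52, and were 28 and 30 without day 2, 23 and 17 without day 6, and 29 and 19 without day 7. The correlation of CpG levels between days 6 and 7 was 0.331 with 20 and 0.432 with 50 reads per CpG. Without the largest shared layout, an alternative added after the data were seen, the differences from 20 to 39, from 10 to 19 and between 60 or more and 40 to 59 listed CpGs were -0.0307, -0.0433 and -0.0173. Asking 18 or 22 shared positions in place of 20 gave 629 or 417 tiles in that group. Depth limits the tile values of days 3, 4 and 5.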

Other observations

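The 5874 CpGs whose nearest listed neighbour is 2 bp away, so that they read CGCG, had lower late values than the other CpGs of the tiles. Over pooled reads they stood at 86.3% on day 0, 18.3% on day 6 and 14.5% on day 7, against 85.4% to 87.7%, 19.5% to 21.2% and 15.2% to 17.1% in CpGs grouped by wider spacing. They kept 16.9% of their day 0 level on day 7, where the other spacing groups kept 17.3% to 19.9%. This spacing group was not among the planned comparisons and has no test.

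Across the 1290 tiles the number of listed CpGs had a Spearman rho of 0.102 with the level on day 0 and of -0.175 with the level on day 6. The reads per used CpG on day 0 had a rho of -0.144 with the level on day 6, so depth and density both go with the late level in the same direction.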
